A study of Rattus norvegicus with 12 samples.

Results

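The sulfation and methyl conjugation enzymes of rat liver considered here are the products of 7 genes, namely the sulfotransferases Sult1a1, Sult1b1, Sult1c2 and Sult1c3, the sulfate-activating enzymes Papss1 and Papss2, and the thiopurine methyltransferase Tpmt. The members are listed by gene name, and were read from the probe sets that the array's annotation gives to one of these symbols alone. That rule found 8 probe sets, 2 of them for Papss2, among the 29176 on the array, which name 13643 genes alone, and all 8 had a value in each of the 12 rats. A further probe set that names Sult1c2 together with another symbol was not used. Whether a probe set also detects RNA of close relatives of its gene, as among the sulfotransferases, was not checked.

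Livers came from 12 male Sprague Dawley rats, 3 per group, in a dose series of A-998679 given by mouth once a day for 5 days: vehicle, 30 mg/kg, 100 mg/kg and 200 mg/kg, with 1 array per rat. A-998679 is an experimental compound made for neuropsychiatric use and studied here as an activator of the aryl hydrocarbon receptor (AhR). HPMC, a thickener made from cellulose, served as the vehicle (0.2%, 10 ml/kg), and all rats were fasted overnight before the livers were taken. The labels disagree on the top dose, which is 200 mg/kg in the sample titles and 300 mg/kg in the descriptions, and the title is followed here. They give a body weight of 176 to 200 g for all rats, which is below the starting weight that the methods state. The replicates are separate animals.

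Values are log2 intensities, so that a difference of 1 is a doubling. The arrays had medians of 5.21 to 5.26, 12.0% to 12.5% of probe sets without a value, and correlations of 0.913 to 0.938 within groups and 0.910 to 0.941 between groups. Of 8 hepatocyte markers 7 were measured, with summed intensities of 53472 to 56195 in vehicle rats, 49023 to 55406 in rats given 30 mg/kg, 52698 to 57824 in those given 100 mg/kg and 44432 to 53677 in those given 200 mg/kg. At 200 mg/kg all 7 were lower than in vehicle rats (median log2 difference -0.22), 3 of them at an unadjusted p under 0.05 and 0 after adjustment, and the part of this in the values below was not tested. The Kupffer cell markers were 7 of 7 higher at 200 mg/kg, by a median of 0.13 on the log2 scale, with 0 past the test. Their summed intensity was 1819 to 2577 at 200 mg/kg, against 1676 to 2271 in vehicle rats. At that dose 5 of 5 endothelial (median 0.22), 4 of 5 lymphocyte (0.70), 3 of 4 bile duct (0.42) and 4 of 6 exocrine pancreas markers (0.22) were also higher. Of the stellate markers 3 of 7 were higher (-0.01) and of the erythroid markers 1 of 3 (-0.38). In these 6 lists 0 genes passed, also at an unadjusted p under 0.05. Means were below the lower quartile of all values for 5 of 6 pancreas, 2 of 5 lymphocyte, 2 of 4 bile duct and 1 of 5 endothelial markers. In whole liver, fewer cells of a type and less RNA per cell cannot be told apart.

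Sulfation makes phenols, steroids, thyroid hormones and many drugs more soluble. Cytosolic sulfotransferases carry it out by moving a sulfonate group from PAPS, the activated form of sulfate, to a hydroxyl or amine of their substrate. PAPS is made from ATP and inorganic sulfate by the PAPS synthases. Methyl conjugation runs in parallel with S-adenosylmethionine as the donor, and Tpmt methylates the sulfur of thiopurine drugs such as mercaptopurine. Liver is a main site of both reactions, and both belong to the second phase of drug metabolism, beside glucuronidation and glutathione conjugation.

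None of the 8 probe sets passed the test in any comparison. The comparisons were each dose against vehicle, the mean of the 3 doses against vehicle, the doses against each other, and a slope over dose, all with limma at an adjusted p under 0.05. Among all probe sets, 0.00739% of 27065 passed for 30 mg/kg, 0.0221% of 27110 for 100 mg/kg, 0.211% of 26999 for 200 mg/kg, and 0.061% of 26241 for the mean of the doses. The corresponding shares were 0.285% for the slope, 0.0185% for 200 against 30 mg/kg, and 0% for the other two contrasts between doses. At an unadjusted p under 0.05 there were 2 of the 8 for 30 mg/kg (beside 5.11% of all probe sets), 2 for 100 mg/kg (beside 5.98%), 4 for 200 mg/kg (beside 8.74%) and 2 for the mean of the doses (beside 6.76%). The 4 were Sult1b1 and Papss1, which were higher than in vehicle rats, and Sult1c3 and Tpmt, which were lower. Sult1b1 was the 1 gene of the 7 whose treated rats all stood on one side of the vehicle rats, and for the mean of the doses it was at 1.34 times the vehicle level. The median log2 difference of the 8 probe sets at 200 mg/kg was -0.19, with 3 higher and 5 lower, beside -0.0013 over all probe sets. Leaving Papss1 aside, the 95% intervals of the other 7 probe sets at 200 mg/kg reached no lower than 0.551 and no higher than 1.71 times the vehicle level.

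**Figure D1:**
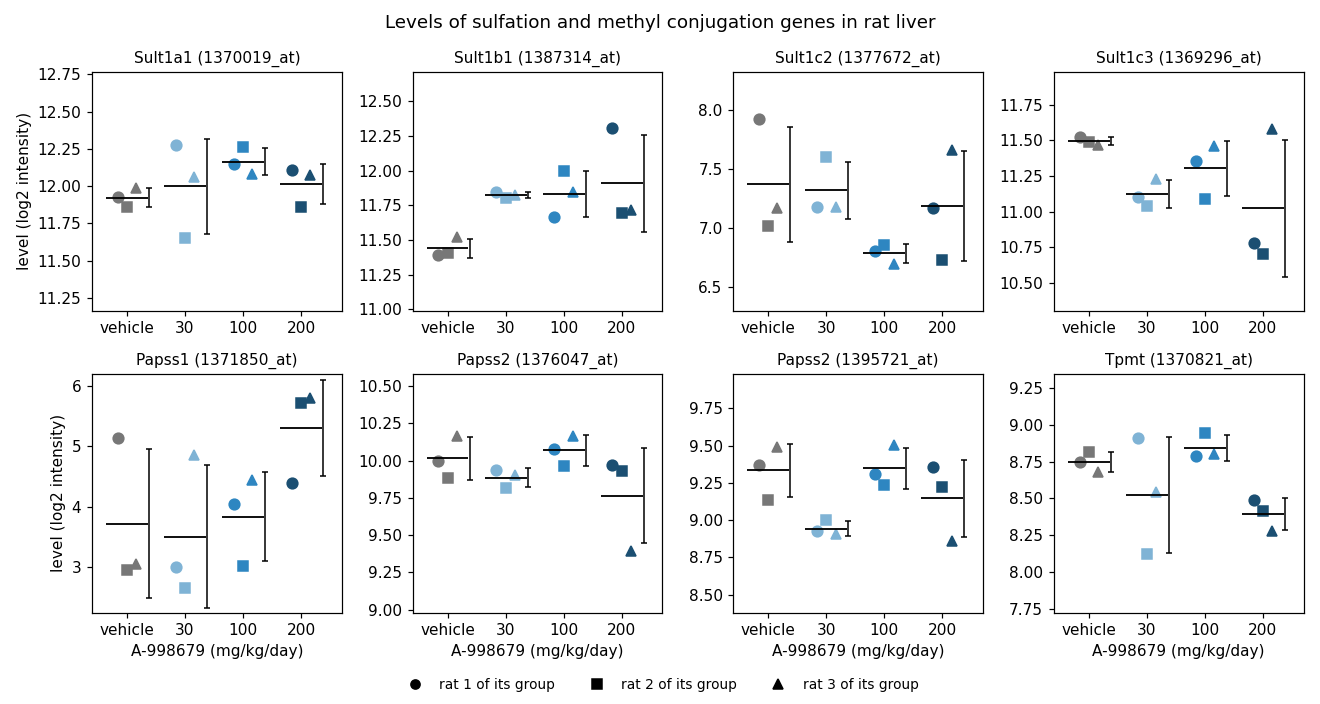
Each point is the log2 intensity of 1 rat for 1 probe set, by daily dose of A-998679 (vehicle, 30, 100 and 200 mg/kg, 3 rats each), with a line at the group mean and a bar of 1 SD; the axes of the panels differ in range. Sult1b1 lies at 11.66 to 12.31 in the 9 treated rats, against 11.39 to 11.52 in vehicle rats, and Tpmt at 8.28 to 8.49 in the rats given 200 mg/kg, against 8.68 to 8.81 in vehicle rats.

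The promoters of 3 of these genes, picked after their values were seen, are given as examples of different patterns of liver level: Sult1b1 was separate from vehicle at every dose, Sult1c3 was lower in all treated rats but 1, and Tpmt was lower in all rats given 200 mg/kg. Each is 300 bases from RefSeq (assembly GRCr8), 250 before and 50 after the annotated start. Capitals mark the core of the AhR binding site, GCGTG, or an antioxidant response element, TGACNNNGC, each searched on both strands. The marked stretches do not overlap. The windows are chr14:20771667-20771966 on the plus strand for Sult1b1, chr9:7594207-7594506 on the minus strand for Sult1c3, and chr17:17850176-17850475 on the plus strand for Tpmt.
Sult1b1: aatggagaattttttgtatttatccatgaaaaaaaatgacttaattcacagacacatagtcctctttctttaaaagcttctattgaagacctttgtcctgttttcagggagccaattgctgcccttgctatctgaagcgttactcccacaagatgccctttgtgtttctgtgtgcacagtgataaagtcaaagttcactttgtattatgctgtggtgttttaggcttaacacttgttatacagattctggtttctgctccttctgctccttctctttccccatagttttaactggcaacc
Sult1c3: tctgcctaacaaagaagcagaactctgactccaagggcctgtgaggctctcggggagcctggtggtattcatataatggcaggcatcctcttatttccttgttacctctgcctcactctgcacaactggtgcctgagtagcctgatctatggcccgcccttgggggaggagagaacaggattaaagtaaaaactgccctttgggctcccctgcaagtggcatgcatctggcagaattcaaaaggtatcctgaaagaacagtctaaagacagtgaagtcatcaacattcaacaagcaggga
Tpmt: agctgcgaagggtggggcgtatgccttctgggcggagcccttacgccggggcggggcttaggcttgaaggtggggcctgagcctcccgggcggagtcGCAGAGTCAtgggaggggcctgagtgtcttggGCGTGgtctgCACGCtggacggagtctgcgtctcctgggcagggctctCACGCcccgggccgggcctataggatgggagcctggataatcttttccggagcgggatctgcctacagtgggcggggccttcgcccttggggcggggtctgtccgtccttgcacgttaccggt
Neither motif occurs in the windows of Sult1b1 and Sult1c3. The Tpmt window holds GCGTG 3 times and TGACNNNGC 1 time, and that of Papss1 holds GCGTG 3 times. Promoters were found for all 7 genes. Of these 2 hold GCGTG, beside 29.7% of 33469 rat promoters of the same length, and 1 holds TGACNNNGC, beside 12.1%. Both counts are near those shares. The windows of Papss1, Papss2 and Tpmt are rich in G and C (68.3%, 70.3% and 68.0%), and those of the sulfotransferases less so, with 38.7% for Sult1b1, 41.0% for Sult1c2, 49.7% for Sult1c3 and 52.3% for Sult1a1. These matches describe the letters only.

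Papss1 and Papss2 each carry both activities needed to make PAPS, ATP sulfurylase and APS kinase, in one protein, and Papss2 is the principal form of rodent liver. Papss2 was read by 2 probe sets. On probe set 1376047_at, the log2 level of Papss2 was 10.00, 9.88 and 10.17 in the vehicle rats, 9.94, 9.81 and 9.90 in rats given 30 mg/kg, 10.08, 9.96 and 10.17 in those given 100 mg/kg and 9.97, 9.93 and 9.40 in those given 200 mg/kg. The groups overlapped, and the lowest of the 12 values was that of 1 rat at 200 mg/kg (rat 3). The limma difference from vehicle on 1376047_at was -0.13 for the lowest dose, 0.05 for 100 mg/kg and -0.25 for 200 mg/kg (95% interval -0.54 to 0.04, adjusted p = 0.65), and without rat 3 the last of these was -0.07.

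Probe set 1395721_at gave log2 levels of Papss2 of 9.37, 9.14 and 9.49 in vehicle rats, 8.93, 8.997 and 8.90 in rats given 30 mg/kg, 9.31, 9.23 and 9.50 in those given 100 mg/kg and 9.36, 9.22 and 8.86 in those given 200 mg/kg. All 3 rats given 30 mg/kg were below all 3 vehicle rats, while the rats given 100 mg/kg lay within or just above the vehicle range. The difference at 30 mg/kg was -0.39 (95% interval -0.67 to -0.11), with an unadjusted p of 0.0099 and a limma adjusted p of 0.92, and that at 200 mg/kg was -0.19, or -0.04 without rat 3. At 100 against 30 mg/kg it was 0.40 (0.13 to 0.68, limma adjusted p = 0.84), so the low level of the lowest dose did not continue at the next one. The other probe set had differences of the same sign in both contrasts (-0.13 and 0.18). Between rats the 2 probe sets moved together, with Pearson's r = 0.78 (permutation p = 0.0001) and Spearman's rho = 0.90 (permutation p = 0.00021) over 12 rats, the only relation tested. Pearson's r was 0.77 without the 2 rats farthest from the median, and 0.91 for the deviations of the rats from their group means.

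The Papss1 probe set was dim. Its log2 level was 5.14, 2.96 and 3.06 in vehicle rats, 3.01, 2.65 and 4.85 in rats given 30 mg/kg, 4.04, 3.03 and 4.45 in those given 100 mg/kg and 4.39, 5.71 and 5.80 in those given 200 mg/kg. In 5 of the 12 rats it was below the lower quartile of all values on the arrays (3.84), namely 2 vehicle rats, 2 rats given 30 mg/kg and 1 given 100 mg/kg. The rats at 200 mg/kg overlapped 1 vehicle rat, and 2 of them were above all vehicle rats. The limma difference at 200 mg/kg was 1.58 (95% interval 0.037 to 3.12), the widest interval of the 8 probe sets, with adjusted p = 0.56, and 1.03 when values below that quartile were set to it. The slope of Papss1 was 0.84 per 100 mg/kg (unadjusted p = 0.018, limma adjusted p = 0.40). The spread within groups (pooled SD 1.01) was larger than for the other probe sets, which had 0.17 to 0.36.

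**Figure D2:**
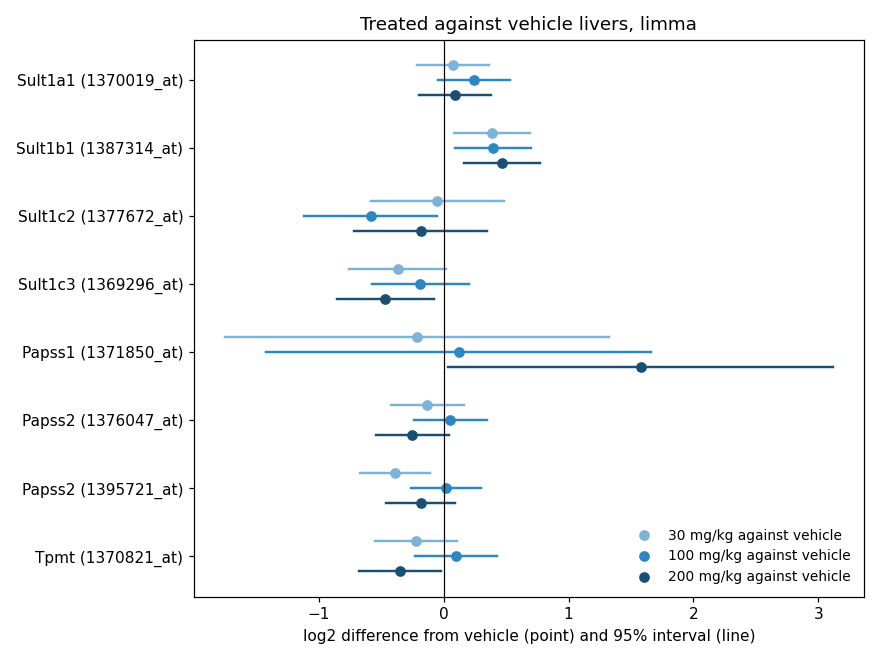
The horizontal axis is the log2 difference of the treated rats from vehicle rats (point) with its 95% interval (line) from limma, for 30, 100 and 200 mg/kg on each of the 8 probe sets, with 0 as no difference. Intervals of Sult1b1 lie above 0 at all 3 doses (0.08 to 0.69, 0.09 to 0.70 and 0.16 to 0.77), and the interval of Papss1 is the widest.

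Sult1a1 is the phenol sulfotransferase of liver, which acts on simple phenols and many drugs. Its log2 level was 11.93, 11.86 and 11.98 in vehicle rats, 12.27, 11.65 and 12.06 in rats given 30 mg/kg, 12.15, 12.26 and 12.08 in those given 100 mg/kg and 12.11, 11.86 and 12.07 in those given 200 mg/kg. Only the rats at 100 mg/kg were all above the vehicle rats. The limma differences from vehicle were 0.07 for 30 mg/kg (95% interval -0.21 to 0.36), 0.24 for 100 mg/kg (-0.046 to 0.53) and 0.09 for 200 mg/kg (-0.20 to 0.38), with adjusted p between 0.88 and 0.98. The upper bound at 200 mg/kg is a 1.30-fold and the lower bound a 0.873-fold level, so larger shifts of the group mean in Sult1a1 lie outside the interval.

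Sult1b1 sulfates thyroid hormones, dopa and small phenols. Its log2 level was 11.39, 11.41 and 11.52 in vehicle rats, 11.84, 11.80 and 11.82 in rats given 30 mg/kg, 11.66, 12.00 and 11.84 in those given 100 mg/kg and 12.31, 11.70 and 11.72 in those given 200 mg/kg. All 9 treated rats were above all 3 vehicle rats, the highest being rat 1 at 200 mg/kg. Of the 20497 probe sets measured in all rats, 0.683% were separate in this direction and 1.37% in either, and Sult1b1 was the 1 of the 8 probe sets that was. The mean was 11.44 ± 0.07 in vehicle rats, 11.82 ± 0.02 in rats given 30 mg/kg, 11.83 ± 0.17 in those given 100 mg/kg and 11.91 ± 0.35 in those given 200 mg/kg (SD, n = 3 each). The limma differences from vehicle were 0.39 for 30 mg/kg (adjusted p = 0.95), 0.40 for 100 mg/kg (0.74) and 0.47 for 200 mg/kg (0.29), the last being 0.27 without rat 1 of that dose.

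For the mean of the 3 doses Sult1b1 was 1.34-fold the vehicle level (95% interval 1.12 to 1.59), with an unadjusted p of 0.0031 and a limma adjusted p of 0.38. The 2-sided exact permutation test of the 9 treated against the 3 vehicle rats gave p = 0.0045, the smallest that 220 splits can give, and was run on each of the 8 probe sets without adjustment. The exact test of 3 against 3 rats cannot go below p = 0.1, which Sult1b1 reached at each dose. Sult1b1 did not differ between doses beyond its spread: 200 against 30 mg/kg was 0.08 on the log2 scale (95% interval -0.22 to 0.39). The slope over dose was 0.18 per 100 mg/kg (unadjusted p = 0.028, limma adjusted p = 0.46), and most of the difference from vehicle was present at the lowest dose.

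Sult1c2 and Sult1c3 lie on the same chromosome and belong to one subfamily. Older names of Sult1c3 in RefSeq are Sult1c1 and HAST-I, an enzyme known in rats for sulfating N-hydroxyarylamines and for being more abundant in males. Its log2 level was 11.52, 11.48 and 11.47 in vehicle rats, 11.10, 11.04 and 11.23 in rats given 30 mg/kg, 11.36, 11.09 and 11.46 in those given 100 mg/kg and 10.78, 10.71 and 11.58 in those given 200 mg/kg. Of the 9 treated rats 8 were below all vehicle rats, and rat 3 at 200 mg/kg had the highest value of all 12. The vehicle rats were close together (SD 0.03), while the rats at 200 mg/kg were not (SD 0.48).

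The limma difference of Sult1c3 was -0.37 for 30 mg/kg (95% interval -0.76 to 0.02), -0.19 for 100 mg/kg and -0.47 for 200 mg/kg (-0.86 to -0.08), with adjusted p of 0.97, 0.93 and 0.45. The mean of the doses was 0.788 times the vehicle level (0.633 to 0.983, limma adjusted p = 0.71), and the exact permutation test of 9 against 3 rats gave p = 0.077. Without rat 3 at 200 mg/kg, the difference of Sult1c3 at that dose was -0.75 with a limma adjusted p of 0.017, so that the call at 200 mg/kg turns on 1 animal.

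Sult1c2 is a less well characterised member of the subfamily. Its log2 level was 7.92, 7.02 and 7.17 in vehicle rats, 7.18, 7.60 and 7.18 in rats given 30 mg/kg, 6.80, 6.85 and 6.70 in those given 100 mg/kg and 7.17, 6.73 and 7.66 in those given 200 mg/kg. The 3 rats at 100 mg/kg were below all vehicle rats and close together (SD 0.08), while vehicle rat 1 stood above the others. The limma difference was -0.05 for 30 mg/kg, -0.59 for 100 mg/kg (95% interval -1.12 to -0.05, unadjusted p = 0.034, adjusted p = 0.81) and -0.18 for 200 mg/kg. Without vehicle rat 1 the difference at 100 mg/kg was -0.31.

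Tpmt had log2 levels of 8.75, 8.81 and 8.68 in vehicle rats, 8.91, 8.12 and 8.54 in rats given 30 mg/kg, 8.79, 8.94 and 8.80 in those given 100 mg/kg and 8.49, 8.41 and 8.28 in those given 200 mg/kg. The 3 rats at 200 mg/kg were below all rats of the vehicle and 100 mg/kg groups, and the rats at 30 mg/kg spanned nearly the whole range. The limma difference at 200 mg/kg was -0.35 (95% interval -0.68 to -0.02), or 0.783 times the vehicle level, with an unadjusted p of 0.037 and an adjusted p of 0.53, and it lay between -0.40 and -0.30 whichever rat was left out. Against 100 mg/kg the 200 mg/kg group differed by -0.45 (-0.78 to -0.12, unadjusted p = 0.011, limma adjusted p = 0.73). The difference from vehicle was -0.22 for 30 mg/kg and 0.10 for 100 mg/kg, so the sign of Tpmt did not follow the dose. Over the 3 doses Tpmt differed from vehicle by -0.16 (-0.43 to 0.11).

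Separation from the vehicle rats was counted for all probe sets as well. For 30 mg/kg 3 of the 8 probe sets did not overlap with vehicle (Sult1b1 above, Sult1c3 and Papss2 on 1395721_at below), beside 10.4% of the probe sets measured in all rats. For 100 mg/kg it was 4 of 8 (Sult1a1 and Sult1b1 above, Sult1c2 and Sult1c3 below), beside 13.4%, and for 200 mg/kg 2 of 8 (Sult1b1 above and Tpmt below), beside 15.6%. All doses share the same 3 vehicle rats, so a vehicle group that is tight or shifted on a probe set enters each of these counts.

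The genes around the 2 reactions were described by lists, none of which holds a member, and are given for 200 mg/kg against vehicle, where the median over all probe sets was -0.0013. In that comparison 8.74% of all probe sets had an unadjusted p under 0.05 and 0.211% passed after adjustment, which are the shares to set beside the list counts. Of the 7 other cytosolic sulfotransferases tested with limma, 0 passed after adjustment and 1 had an unadjusted p under 0.05, with a median log2 difference of -0.08 (2 higher, 5 lower). Several were dim: the mean log2 level of Sult1d1 (1.98) was below the lower quartile of all values (3.84), and that of Sult2a1 (4.12) was near it. Over the 5 measured in all rats the median difference was -0.00018, which is that of Sult2a1. Sult1e1, the estrogen sulfotransferase, had log2 levels of 12.24, 10.93 and 11.62 at 200 mg/kg, against 12.54, 12.34 and 12.55 in vehicle rats. All 3 treated rats were lower, with a difference of -0.88 (95% interval -1.38 to -0.38, limma adjusted p = 0.21), and without rat 1 at 200 mg/kg the adjusted p was 0.025. That was the 1 call in 12 fits with 1 rat left out, and the adjusted p reached 0.41 in another. Sult2a6, a hydroxysteroid sulfotransferase, differed by 1.05 (-0.14 to 2.25, adjusted p = 0.64), or by 0.42 without rat 2 at 200 mg/kg. Without that rat the difference of Sult1e1 was -0.55.

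The supply of sulfate and the removal of the by-product PAP were represented by 7 transporters and phosphatases and by 10 enzymes that make sulfate from cysteine and sulfide, with 0 of either past limma's adjusted threshold. At an unadjusted p under 0.05 there was 1 of the 7 (lower; median of the list -0.10) and 3 of the 10 (2 higher and 1 lower; median -0.07). Slc13a4, a sodium-sulfate cotransporter, differed by -0.90 (limma adjusted p = 0.38; -0.51 without vehicle rat 1), and Bpnt1, a phosphatase that degrades PAP, by 0.24 (0.65; 0.16 to 0.39 with 1 rat left out). Sqor, which oxidises sulfide in mitochondria, had log2 levels of 7.92, 8.11 and 8.30 at 200 mg/kg, against 9.65, 8.66 and 9.26 in vehicle rats, a difference of -1.08 with a limma adjusted p of 0.38. The sulfurtransferase Tst differed by 0.30 (0.38).

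Sulfatases, which remove sulfate groups, had 0 of 11 past limma's adjusted threshold and 3 at an unadjusted p under 0.05 (1 higher and 2 lower; median -0.08). Steroid sulfatase, Sts, had log2 levels of 7.85, 7.50 and 7.65 at 200 mg/kg, against 8.21, 8.38 and 8.04 in vehicle rats, a difference of -0.54 (95% interval -0.81 to -0.27, limma adjusted p = 0.13). Sulf2, which trims heparan sulfate outside the cell, differed by 0.78 (adjusted p = 0.32). Of 18 sulfotransferases of the Golgi, which use PAPS for proteins and glycans, 0 passed at 200 mg/kg. There were 2 at an unadjusted p under 0.05, both lower. The median of the list was -0.19, and -0.098 over the 8 measured in all rats. For the slope over dose, 1 of 19 passed, going down with dose. Tpst1 and Tpst2, which sulfate tyrosines of secreted proteins, differed by -0.59 (adjusted p = 0.14) and -0.34 (0.41). For Tpst1 the limma adjusted p was 0.025 without rat 3 at 200 mg/kg. That was the 1 call in 12 fits with 1 rat left out, and the adjusted p reached 0.32 in another.

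On the methylation side, 0 of 16 other methyltransferases passed at 200 mg/kg and 2 had an unadjusted p under 0.05 (median 0.04). These were Nsun2, an RNA methyltransferase, at 0.50 (limma adjusted p = 0.30, or 0.034 without rat 3 at 200 mg/kg) and Comtd1 at 0.51 (0.45). Nsun2 was called in 1 of 12 fits with 1 rat left out, and its adjusted p reached 0.62 in another. Of 9 genes of S-adenosylmethionine supply and turnover (median 0.05 at 200 mg/kg), 1 passed for the mean of the 3 doses. Amd1, the decarboxylase that diverts S-adenosylmethionine to polyamines, had log2 levels of 6.96, 6.86 and 7.12 in vehicle rats, 7.66, 7.62 and 7.45 in rats given 30 mg/kg, 7.67, 7.64 and 7.61 in those given 100 mg/kg and 7.69, 7.51 and 7.48 in those given 200 mg/kg. All 9 treated rats were above all vehicle rats, and Amd1 rose 1.53-fold (log2 difference 0.61, 95% interval 0.42 to 0.81, limma adjusted p = 0.023). At 200 mg/kg alone its difference was 0.58 (adjusted p = 0.057). The call over the doses was lost without vehicle rat 1 (0.14), vehicle rat 2 (0.13) or any of the 3 rats at 100 mg/kg (0.067, 0.061 and 0.052), and also without the variance trend (0.21) or with the rat number as a block (0.062).

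Among 6 genes that handle thiopurines beside Tpmt, 0 passed at 200 mg/kg and 2 had an unadjusted p under 0.05, both higher (median 0.22). Hprt1, which activates thiopurines by salvage, was at 9.50, 9.52 and 9.48 at 200 mg/kg, against 9.07, 9.12 and 9.31 in vehicle rats, a difference of 0.34 (limma adjusted p = 0.23). Aox1, an aldehyde oxidase that inactivates them, differed by 1.25 (0.31), with vehicle rat 2 at 9.05 far below the other vehicle rats (10.79 and 11.20) and a difference of 0.60 without it.

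AhR target genes were read in the same livers for comparison. Cyp1a1, a cytochrome P450 and AhR target, could not be tested against vehicle, since its values were empty in all rats given vehicle or 30 mg/kg. Its log2 level was 4.58 and 4.07 in 2 rats given 100 mg/kg, empty in the other, and 10.41, 6.50 and 6.37 in those given 200 mg/kg. Of 7 tested, 3 rose at 200 mg/kg and 4 did not pass. Among the 4, the only values of Ahrr in these groups were those of vehicle rat 2 (-1.04) and rat 1 at 200 mg/kg (3.31). Aldh3a1 was dim, at 3.00, 3.60 and 4.49 in vehicle rats, so neither gene was well measured. Gsta3, a glutathione S-transferase of a family of close copies that arrays may not separate, rose by 4.98 on the log2 scale (limma adjusted p = 1.6e-05), Nqo1, a quinone reductase, by 1.77 (0.0077) and Cyp1a2, of the same family as Cyp1a1, by 1.40 (0.0044). At 100 mg/kg Gsta3 rose by 3.60 (0.00088) and Cyp1a2 by 1.51 (0.0083). In vehicle rats Gsta3 was dim, at 3.98 to 4.41, near the lower quartile of all values (3.84). Without the variance trend the calls at 200 mg/kg of Nqo1 (0.13) and Cyp1a2 (0.12) and at 100 mg/kg of Gsta3 (0.079) and Cyp1a2 (0.26) were lost, and in fits of only the groups compared those at 200 mg/kg of Nqo1 (0.067) and Cyp1a2 (0.054) and at 100 mg/kg of Cyp1a2 (0.060). The call for Cyp1a2 at 100 mg/kg was also lost without rat 1 (0.075) or rat 2 (0.082) of that dose. Tiparp, another target, differed by -0.12 at 200 mg/kg (95% interval -0.46 to 0.22).

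**Figure D3:**
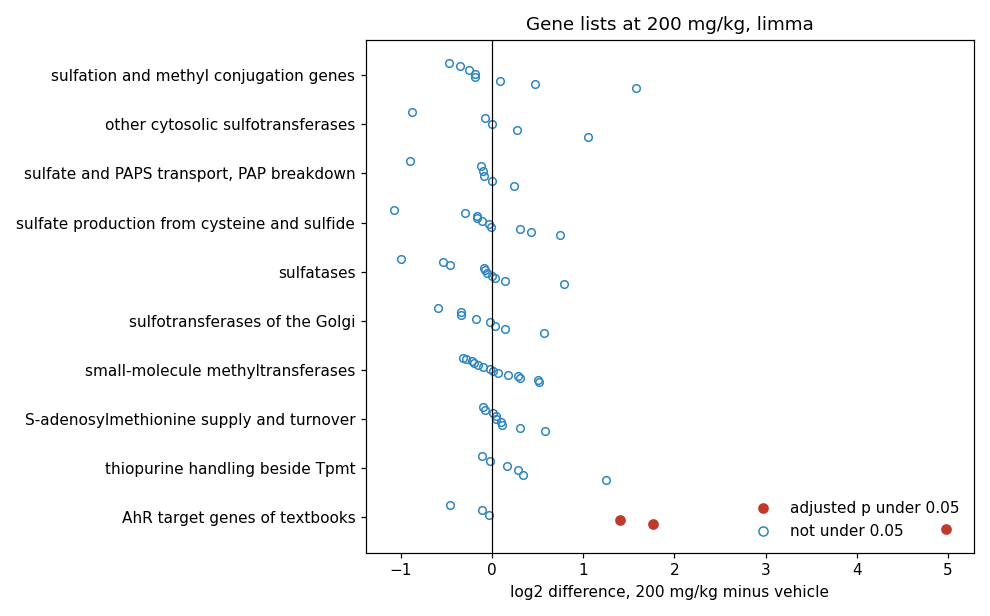
Each point is the log2 difference of 1 gene, 200 mg/kg minus vehicle (horizontal axis), for the 8 probe sets of the sulfation and methyl conjugation genes (first row) and for genes of 9 other lists measured in all rats. Filled points have a limma adjusted p under 0.05: they are Gsta3, Nqo1 and Cyp1a2 in the AhR row, and the other rows have none.

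The genes whose levels ran most like each member over the 12 rats were taken from 10900 genes by Pearson's r, as a description of rats that share groups and arrays. Sult1b1 ran most like Atp5pd (0.92) and Tfrc (0.90), Sult1c3 like Lrrn4cl (0.95) and Stx18 (0.87), and Tpmt like Mbl1 (0.90) and Fndc10 (0.88). Sult1a1 ran most like Tnfrsf1a (0.90) and Ass1 (0.88), and Sult1c2 like Cramp1 (0.90) and Klf11 (0.87). For Papss1 they were Stk4 (0.86) and Meis1 (0.83), and for Papss2, on 1376047_at, Zhx3 (0.87) and Snrnp200 (0.86).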

How the data were processed

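Total liver RNA was hybridized to Affymetrix rat RAE230 2.0 arrays, 1 per rat. Rosetta Resolver was used by the authors to make the deposited log10 intensities, 1 for each probe set of an array. How background was corrected, how arrays were scaled and why some values are empty is not stated in the sources read. The base of the logarithm was taken as 10, since the highest value, 4.03, would be 10828 units in that base and 16.4 or 56.5 units in base 2 or e. A deposited table of folds of each treated rat over vehicle holds the authors' own comparisons and was not used. Groups came from the sample titles, and no column belonged to another series (0 columns).

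Values were converted to log2 without further normalization, and empty values (12.1% of 350112) were treated as missing. Probe sets were named by the platform annotation (19691 with 1 symbol, 424 with several, 9061 with none). Where a listed gene has several probe sets, the brightest stands for it. Means of the 4 groups came from 1 limma model (limma 3.58.1, R 4.3.3; 8 residual degrees of freedom, variance trend), with Benjamini-Hochberg adjustment over all probe sets of a comparison at 0.05 and 95% intervals. Exact permutation tests were 2-sided. Only 3 arrays per group limit the precision. On simulated data for 200 mg/kg against vehicle (20497 probe sets), the script called 45% of 100 set to change 2-fold, 69% of 100 set to change 4-fold, and 5 that were left as they were.

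The members, the gene lists and the tests were chosen with earlier results of these data known. Named genes were all members, list genes past the threshold against vehicle (up to 4 a list) or otherwise the 1 or 2 with the smallest p at 200 mg/kg, and the 2 genes most like each member. Alternatives were quantile and 75th percentile scaling, a floor at the 25th percentile of all values (log2 3.84), filters on empty and on dim probe sets, array weights, other variance models, fits of only the groups compared, the rat number as a block, a threshold of 0.1, dose rank, gene means, the methods' t-test, and leaving out each rat. That t-test is the standard one that the methods name with their graphing software. For the arrays the authors used the error model of Rosetta Resolver, which was not refitted here. Protein sequences were not analysed here. Promoters came from RefSeq (GRCr8). Figures used matplotlib 3.10.9 in Python 3.11.15.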

Additional observations from a re-analysis of the deposited data

How the results depend on the processing

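With 0 of the 8 probe sets called in each of the 8 comparisons, quantile or 75th percentile scaling, the floor, the filters, the other variance models, array weights, gene means, the threshold of 0.1 and, for the slope, dose rank also called 0. So did fits of only the groups compared, which were run for the 6 comparisons of 2 groups and not for the mean of the doses or the slope. The filter on dim probe sets took out Papss1, which could therefore not be called under it. The methods' t-test at its unadjusted threshold called 3 at 30 mg/kg (Sult1b1, Sult1c3 and Papss2 on 1395721_at), 2 at 100 mg/kg (Sult1a1 and Sult1b1), 1 at 200 mg/kg (Tpmt), 1 for the mean of the doses (Sult1b1), 1 for 200 against 100 mg/kg (Tpmt) and 2 for 100 against 30 mg/kg (Sult1c2 and Papss2 on 1395721_at). It called 0 for 200 against 30 mg/kg and was not run for the slope. The share of all probe sets that passed this t-test is not given here, so these counts have no background beside them. After Benjamini-Hochberg the t-test called 0 in each of the 7, and by it Gsta3 (0.15), Cyp1a2 (0.50) and Nqo1 (0.51) did not pass at 200 mg/kg, nor Gsta3 (0.45) and Cyp1a2 (0.57) at 100 mg/kg. It is not the test that the authors used for the arrays. Leaving out 1 rat gave 0 to 1 calls at 200 mg/kg, the 1 being Sult1c3 without rat 3 at 200 mg/kg (differences of -0.75 to -0.31 over the 12 rats left out, adjusted p 0.017 to 0.73), and 0 in the other comparisons.

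The sign of Papss1 at 100 mg/kg turned to -0.16 with the floor, under which 5 of its 12 values lie, and to -0.056 with array weights. Leaving out 1 rat turned signs of small differences, which ranged at 30 mg/kg for Sult1c2 (-0.23 to 0.23), Papss1 (-0.89 to 0.49) and Sult1a1 (-0.064 to 0.25), at 100 mg/kg for Papss1 (-0.26 to 0.83) and Papss2 (-0.014 to 0.13 and -0.083 to 0.093), at 200 mg/kg for Sult1c2 (-0.42 to 0.092), and over the doses for Sult1c2 (-0.45 to 0.0030). Sult1b1 stayed at 0.27 to 0.57 at 200 mg/kg and 0.35 to 0.46 over the doses.

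Rats with the same number in different groups did not deviate together by correlation (-0.074 to 0.076 over 18 pairs, against -0.058 to 0.092 over 36 other pairs). Whether they share anything else beside the number was not tested. With that number as a block, 42 probe sets in all passed at 200 mg/kg, against 57 without it, 0 of the 8 among them (Sult1b1 adjusted p = 0.36), and the call of Amd1 over the doses was lost (0.062). At 200 mg/kg Amd1 passed with quantile scaling (0.048), 75th percentile scaling (0.048), the floor (0.049), the dim filter (0.037) and array weights (0.037). At 200 mg/kg 3 probe sets in all passed without the variance trend, 95 with array weights, and 14 higher and 12 lower in the fit of only the groups compared. Tpst1 at 200 mg/kg was -1.83 as the mean of its probe sets (0.69). The cause of these shifts was not tested.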
